A study of Arabidopsis thaliana with 4 samples.

Results

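Transcript levels of 52 genes of cell wall loosening, 33 xyloglucan endotransglucosylase/hydrolase genes (XTH1 to XTH33) and 19 alpha-expansin genes (EXPA1 to EXPA18 and EXPA20), were compared between Arabidopsis rosettes labelled 35S:∆13RAP2.12 and wild-type rosettes. The genes were chosen by family membership, by locus, with earlier results of these data known. All 52 were found among the 27826 probe sets of the array table. There were 2 arrays labelled 35S:∆13RAP2.12 and 2 arrays of the wild type, both in the Columbia-0 (Col-0) background. The transgene's name stands for an amino-terminally shortened form of the transcription factor RAP2.12, driven by the 35S promoter of a plant virus in most tissues rather than by its own promoter. Stratification lasted 2 days at 4 °C for both lines. Plants were 4 weeks old, grew in 12 h of light at 22 °C in the day and 18 °C at night, and were harvested 10 h after the light came on. The labels do not say how many plants made up a sample or how many independent lines were used, so the p-values rest on a spread that may be technical. The study's design names 6 arrays, of which these 4 were analysed here. Levels are the deposited expression values on the log2 scale, made with RMA, a method that combines the probes of a gene after background correction and quantile normalization between arrays.

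XTH enzymes cut xyloglucan, the hemicellulose that coats and links cellulose microfibrils in the primary wall, and join the cut end to another xyloglucan chain or, in some members, to water. Alpha-expansins loosen contacts between wall polymers without cutting them, which lets the wall yield to turgor as a cell grows. Single members of both families are known from different organs and respond to different cues, such as hormones, touch and shade.

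RAP2.12 itself had log2 levels of 11.28 and 11.06 on the labelled transgenic arrays, against 11.07 and 11.16 in the wild type, so its level did not bear out the label (difference 0.06, limma adjusted p = 0.879). Where its probes lie in the gene is not known here, so whether they read the transgene was not tested. The hypoxia genes ADH1 and PDC1, which ERF-VII factors such as RAP2.12 activate, were higher by 3.23 and 5.13. The arrays labelled 35S:∆13RAP2.12 are therefore called transgenic-labelled here. The rosette label fits the marker levels in part, and the RNA protocol speaks of whole plants. Of 5 root markers, COBL9, PRP3 and LRX1 were at the low end of the scale in both lines, below the overall lower quartile of 4.82, while CASP1 (6.43 to 6.70) and PYK10 lay above it. PYK10, a beta-glucosidase abundant in roots, had 11.05 and 11.17 on transgenic-labelled arrays, against 10.51 and 10.28 in the wild type (difference 0.72, adjusted p = 0.102). The mean of the 5 root markers was 5.61 and 5.80 on transgenic-labelled arrays, against 5.49 and 5.57 in the wild type, and that of 5 leaf markers was 10.92 and 10.87, against 10.97 in both wild-type arrays. The mean of 5 flower markers was 4.33 and 4.09 on transgenic-labelled arrays, against 4.42 and 4.76 in the wild type. AG, a floral organ identity gene and the only flower marker above the lower quartile, had 5.22 and 5.45 on transgenic-labelled arrays, against 6.27 and 6.60 in the wild type (difference -1.10, adjusted p = 0.0690). Their part in the results below was not tested. A change in the share of a tissue and a change in transcript per cell cannot be told apart in whole rosettes.

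Of the 52 genes, 3 were higher and 1 was lower in transgenic-labelled rosettes at an adjusted p below 0.05 in limma's test, a linear model with variances shared across genes, adjusted by Benjamini-Hochberg over the whole table. Genes past this threshold are described as called or as having passed, and 48 did not pass. The higher ones were EXPA2, EXPA10 and XTH22, and the lower one was EXPA16. Called genes thus made up 7.69% of the members, where 2.17% of all probe sets were called, 1.74% higher and 0.424% lower. A difference of at least 1 log2 unit, which is 2-fold, was found for 10 members, or 19.2%, against 3.94% of all probe sets. Of these 10, 6 were higher and 4 lower, where 2.91% and 1.03% of all probe sets were. Differences were negative for 34 of the 52 members, or 65.4%, where 57.6% of all probe sets were negative. Most were small: the median difference was -0.14, with quartiles of -0.42 and 0.22, against a median of -0.04 for all probe sets with quartiles of -0.20 and 0.13. Arrays of the 2 lines did not overlap for 31 members, or 59.6% beside 48.6% of all probe sets, with 12 higher (19.5% of all probe sets) and 19 lower (29.1% of all probe sets). At an unadjusted p below 0.05, 8 members were higher and 14 lower, where 7.85% and 8.38% of all probe sets were. When the prior variance of the test followed the level, 15 members passed, 6 higher and 9 lower, or 28.8% beside 6.32% of all probe sets. With probe sets of low level left out, 6 of 38 members tested passed, beside 4.32% of the probe sets tested. At an adjusted p below 0.10, 4 members were higher and 3 lower, beside 2.98% and 1.34% of all probe sets, 4.32% together.

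EXPA2, an expansin best known from germinating seeds, had the largest difference of the 52 genes. Its log2 level was 7.46 and 8.51 on transgenic-labelled arrays, against 4.65 and 5.04 in the wild type. The lines were far apart although the 2 transgenic-labelled arrays differed by 1.04. The mean was 7.99 ± 0.74 on transgenic-labelled arrays and 4.85 ± 0.28 in the wild type (SD, n = 2 each), a log2 difference of 3.14 (SE 0.39, limma adjusted p = 0.0404), or 8.81-fold. With a wild-type mean next to the lower quartile of 4.82, the fold itself is uncertain. EXPA2 still passed without replicate 1 (difference 3.66) or replicate 2 (2.62) of the transgenic-labelled arrays. It did not pass without wild type replicate 1 (2.94, adjusted p = 0.224) or without wild type replicate 2 (3.34, adjusted p = 0.234).

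EXPA10, an expansin known for its part in leaf and petiole growth, was higher with little spread. It had 10.97 and 10.80 on transgenic-labelled arrays, against 9.61 and 9.37 in the wild type. Both lines were tight, and the gap between them was several times the gap within either. Its mean was 10.88 ± 0.12 on transgenic-labelled arrays and 9.49 ± 0.17 in the wild type (SD, n = 2 each), a difference of 1.39 with an SE of 0.15, which is 2.62-fold (limma adjusted p = 0.0279).

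EXPA16 went the other way. Its level was 7.15 and 7.06 on transgenic-labelled arrays, against 8.39 and 8.63 in the wild type, a difference of -1.41 (SE 0.14, 95% interval -1.78 to -1.04, limma adjusted p = 0.0235), or 2.65-fold lower. Again the 2 arrays of each line were close, at most 0.24 apart.

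Calls for EXPA10, EXPA16 and XTH22 were each lost with any 1 array left out. Without replicate 1 of the transgenic-labelled arrays the adjusted p was 0.109, 0.0894 and 0.136 for these 3 genes in that order, and without replicate 2 it was 0.0739, 0.0888 and 0.0944. Leaving out replicate 1 of the wild type gave 0.143, 0.124 and 0.174, and leaving out its replicate 2 gave 0.180, 0.152 and 0.172. The differences in these 4 fits stayed between 1.27 and 1.51 for EXPA10, between -1.53 and -1.29 for EXPA16 and between 1.09 and 1.24 for XTH22. Over all probe sets the number called was 262, 315, 0 and 29 in the same 4 fits.

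Among the other alpha-expansins, 2 had large differences that did not pass. EXPA8 had 7.32 and 8.70 on transgenic-labelled arrays, against 9.24 and 9.65 in the wild type. The transgenic-labelled arrays were 1.38 apart, and the difference of -1.44 had an adjusted p of 0.271 (limma). It was -0.75 with their replicate 1 left out and -2.13 with their replicate 2 left out. EXPA11 had 7.91 and 8.56 on transgenic-labelled arrays, against 9.33 and 9.29 in the wild type (difference -1.08, SE 0.24, adjusted p = 0.136). EXPA9, named outside the rule because its arrays also lay apart, had 7.78 and 7.94 on transgenic-labelled arrays, against 6.95 and 7.27 in the wild type (difference 0.75, adjusted p = 0.126).

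**Figure D1:**
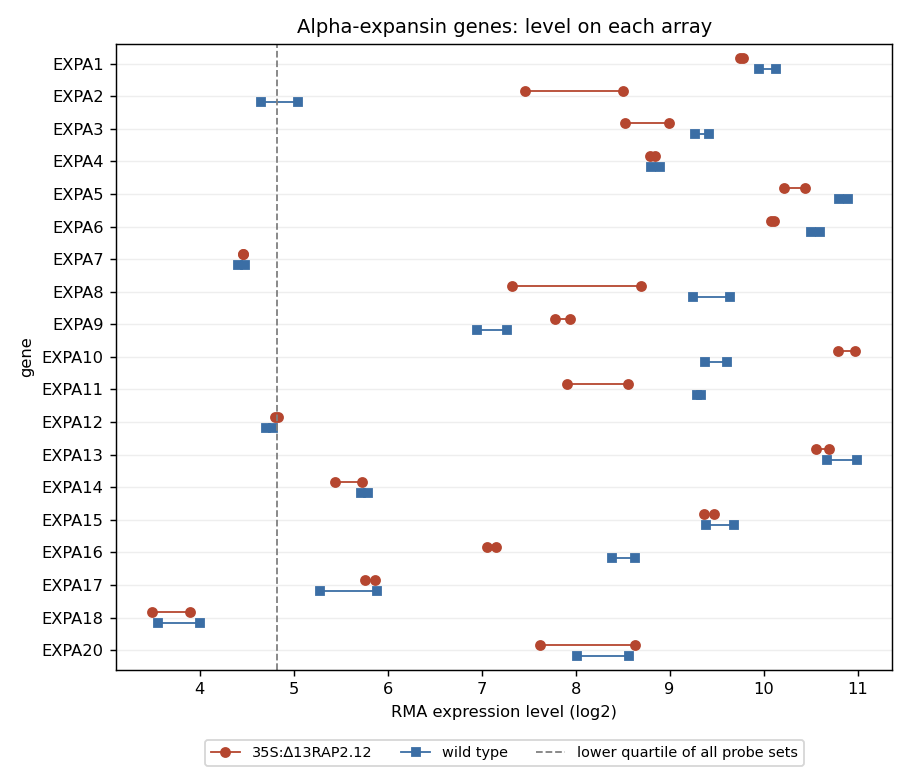
RMA level (log2, horizontal axis) of each of the 19 alpha-expansin genes on each array, with a line joining the 2 arrays of a line and the lower quartile of all probe sets dashed. EXPA2 and EXPA10 lie to the right and EXPA16, EXPA8 and EXPA11 to the left of their wild-type arrays, while most other genes lie close to theirs.

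The remaining alpha-expansins had smaller differences, none of which passed. EXPA5 and EXPA6, with differences of -0.52 and -0.45, and EXPA3, with -0.59, had lower levels on both transgenic-labelled arrays than on either wild-type array (adjusted p = 0.179, 0.170 and 0.265). EXPA1, an expansin of guard cells, showed the same order with a difference of -0.28. EXPA4, EXPA13, EXPA14, EXPA15, EXPA17 and EXPA20 had overlapping arrays and differences from -0.21 to 0.23. EXPA12 differed by 0.08 at levels next to the lower quartile. EXPA7 and EXPA18, which act in root hair growth, lay below that quartile in both lines, with differences of 0.01 and -0.09. Over the 19 genes 2 were called higher and 1 called lower, beside 1.74% and 0.424% of all probe sets. Differences were negative for 13 of the 19, where 57.6% of all probe sets were negative. Their median difference was -0.16, against -0.04 for all probe sets.

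XTH22, also known as TCH4 for its induction by touch, was the only XTH gene that passed in this fit. It had 9.20 and 9.06 on transgenic-labelled arrays, against 7.89 and 8.04 in the wild type, with both lines tight. This 2.24-fold change was 1.16 on the log2 scale (SE 0.13, 95% interval 0.82 to 1.51, limma adjusted p = 0.0324). It belongs to XTH12 to XTH26, taken here as a second branch by number, where 5 more genes had higher levels on both transgenic-labelled arrays without passing. With XTH22 these were 6 of 15, where 19.5% of all probe sets had arrays apart and higher.

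XTH23, a close relative known as XTR6, came nearest. Its level was 10.08 and 9.32 on transgenic-labelled arrays, against 7.68 and 7.85 in the wild type. The lines did not overlap, with a difference of 1.93 (SE 0.28, limma adjusted p = 0.0583). It passed without replicate 2 of the transgenic-labelled arrays, at 2.31 (adjusted p = 0.0233).

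XTH18 had 7.96 and 7.18 on transgenic-labelled arrays, against 4.51 and 5.76 in the wild type, and the 1.25 between the wild-type arrays goes with a wide interval (difference 2.44, 95% interval 1.11 to 3.77, adjusted p = 0.116). XTH25 was wider still, with 7.76 and 8.47 on transgenic-labelled arrays, against 5.51 and 7.05 in the wild type (difference 1.83, 95% interval 0.31 to 3.36, adjusted p = 0.238). Its size rested on the wild-type arrays: leaving out replicate 1 of the wild type gave 1.06, and leaving out replicate 2 gave 2.61. XTH24, known as MERI5B from meristem-enriched transcripts, had 10.27 and 10.19 on transgenic-labelled arrays, against 9.35 and 9.70 in the wild type (difference 0.71, adjusted p = 0.144). In XTH23, XTH18, XTH25 and XTH24 alike, both transgenic-labelled arrays lay above both wild-type arrays. XTH13 did so too, below the lower quartile.

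**Figure D2:**
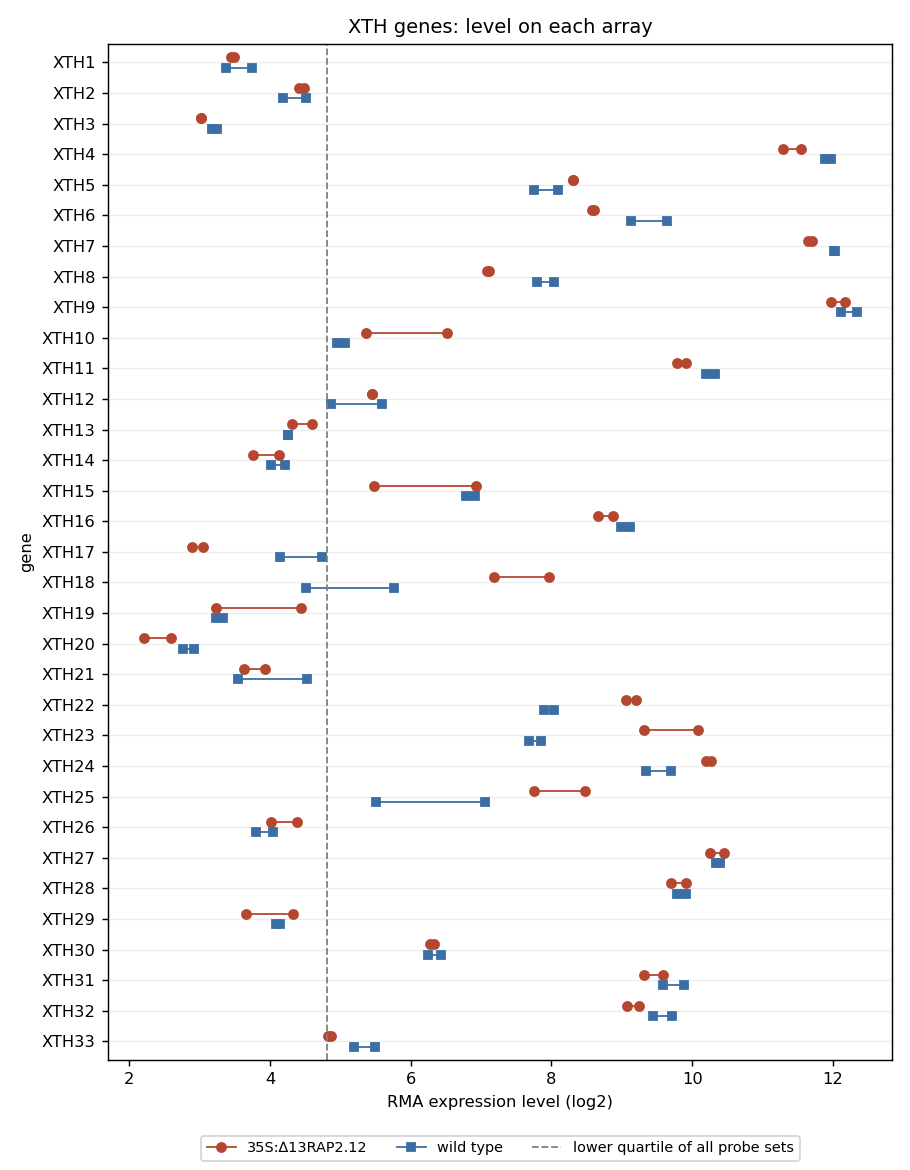
RMA level (log2, horizontal axis) of XTH1 to XTH33 on each array, with a line joining the 2 arrays of a line and the lower quartile of all probe sets dashed. XTH18, XTH22, XTH23, XTH24 and XTH25 lie to the right of their wild-type arrays, and XTH4, XTH6, XTH7, XTH8 and XTH11 lie to the left by less than 1 log2 unit on average. XTH17 lies further to the left, with a difference of -1.48 at levels below the lower quartile in both lines.

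Within XTH12 to XTH26, 9 differences were positive and 6 negative, where 57.6% of all probe sets were negative. Arrays lay apart and lower for 3 of the 15 genes, beside 29.1% of all probe sets. XTH17 had the largest of the negative differences. It is named outside the rule because its levels, 2.89 and 3.05 on transgenic-labelled arrays and 4.74 and 4.15 in the wild type, were all below the lower quartile. The difference was -1.48 (SE 0.23, adjusted p = 0.0682), and it is not known whether its signal exceeded background. XTH15, which like XTH17 is known to respond to shade, had transgenic-labelled arrays 1.45 apart and a difference of -0.64 (adjusted p = 0.600). XTH16 differed by -0.29 and XTH12 by 0.22. The other 6 genes of this branch, XTH13, XTH14, XTH19, XTH20, XTH21 and XTH26, lay below the lower quartile in both lines, with differences from -0.45 to 0.56. Several of them, such as XTH14 and XTH26, are known mainly from roots.

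Several of these genes lie next to each other, which the gene order of the TAIR10.1 annotation shows. XTH24, XTH18 and XTH19 (AT4G30270, AT4G30280 and AT4G30290) are consecutive protein-coding genes on chromosome 4. XTH24 and XTH18 were the 2 with higher levels on both transgenic-labelled arrays, while XTH19 had 4.44 and 3.24 on those arrays, against 3.33 and 3.23 in the wild type, and overlapped. On chromosome 5, XTH13, XTH25 and XTH22 (AT5G57540, AT5G57550 and AT5G57560) are consecutive, with XTH12 (AT5G57530) separated from them by 1 gene. Here XTH25 and XTH22 had the large differences of 1.83 and 1.16, against 0.20 for XTH13 and 0.22 for XTH12. For XTH13 it was 0.06 with replicate 1 and 0.35 with replicate 2 of the transgenic-labelled arrays left out. XTH23 and XTH14 (AT4G25810 and AT4G25820), also neighbours, differed by 1.93 and -0.17, and XTH14 lay below the lower quartile. XTH1 and XTH2 (AT4G13080 and AT4G13090), a further pair on chromosome 4, had -0.09 and 0.10. Neighbouring XTH genes can be close copies, and the probe sequences were not used here, so whether a probe set also read its neighbour's transcript was not tested.

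**Figure D3:**
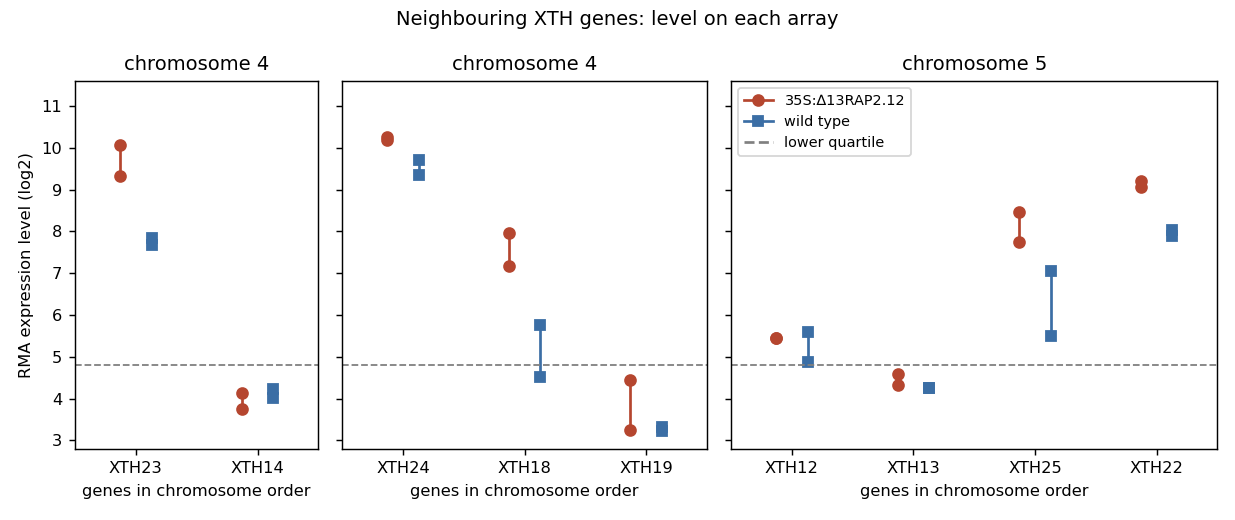
RMA level (log2, vertical axis) of neighbouring XTH genes in chromosome order, with both arrays of each line joined and the lower quartile of all probe sets dashed; levels are to be compared within a gene, not between genes. XTH23, XTH24, XTH18, XTH25 and XTH22 are higher on both transgenic-labelled arrays, and XTH14, XTH19 and XTH12 overlap with the wild type.

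In XTH1 to XTH11, the first branch by number, no gene passed (limma) and differences were mostly small and negative, 8 of 11, where 57.6% of all probe sets were negative. At an unadjusted p below 0.05, 5 of these genes were lower and 0 higher, beside 8.38% and 7.85% of all probe sets. XTH8 had 7.12 and 7.09 on transgenic-labelled arrays, against 8.04 and 7.80 in the wild type (difference -0.82, SE 0.14, adjusted p = 0.0779). XTH6 had 8.57 and 8.60 on transgenic-labelled arrays, against 9.14 and 9.64 in the wild type (difference -0.80, adjusted p = 0.167). In both genes the transgenic-labelled arrays nearly coincided below the wild-type ones.

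XTH4, a main enzyme of growing stems and leaves also called EXGT-A1, had 11.29 and 11.54 on transgenic-labelled arrays, against 11.88 and 11.98 in the wild type (difference -0.52, adjusted p = 0.193). XTH11 had 9.91 and 9.79 on transgenic-labelled arrays, against 10.20 and 10.33 in the wild type (difference -0.41, adjusted p = 0.225). XTH10, whose difference was positive, had 6.52 and 5.37 on transgenic-labelled arrays, against 5.07 and 4.95 in the wild type. That difference of 0.94 rested on 1 array (adjusted p = 0.359), since leaving out replicate 2 of the transgenic-labelled arrays gave 1.51 and leaving out replicate 1 gave 0.36. Of the others, XTH7 differed by -0.35, XTH5 by 0.38 and XTH9 by -0.15, and XTH1, XTH2 and XTH3 lay below the lower quartile with differences from -0.19 to 0.10.

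XTH27 to XTH33, the third branch, had the narrowest range of the 4 groups of members. Differences were negative for all 7 genes, from -0.50 to -0.02, but for 6 of 7 after a further quantile normalization and 5 or 6 of 7 with 1 array left out, and 57.6% of all probe sets were negative. None passed (smallest limma adjusted p = 0.216). At an unadjusted p below 0.05, 2 were lower and 0 higher, beside 8.38% and 7.85% of all probe sets. XTH33 averaged 4.84 ± 0.03 on transgenic-labelled arrays and 5.35 ± 0.21 in the wild type (SD, n = 2 each), close to the low end of the scale (difference -0.50). XTH32 had 9.24 and 9.08 on transgenic-labelled arrays, against 9.44 and 9.71 in the wild type (difference -0.42, adjusted p = 0.297). XTH31, which with XTH32 is known for cutting xyloglucan without rejoining it, had 9.58 and 9.32 on transgenic-labelled arrays, against 9.59 and 9.89 in the wild type (difference -0.29, adjusted p = 0.492). That difference was -0.16 without replicate 2 of the transgenic-labelled arrays, -0.14 with wild type replicate 2 left out and -0.44 with wild type replicate 1 left out. XTH27, XTH28 and XTH30 differed by -0.02, -0.03 and -0.03, and their 95% intervals reached from -0.40 to 0.33 at the widest. XTH29 lay below the lower quartile, with a difference of -0.12.

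**Figure D4:**
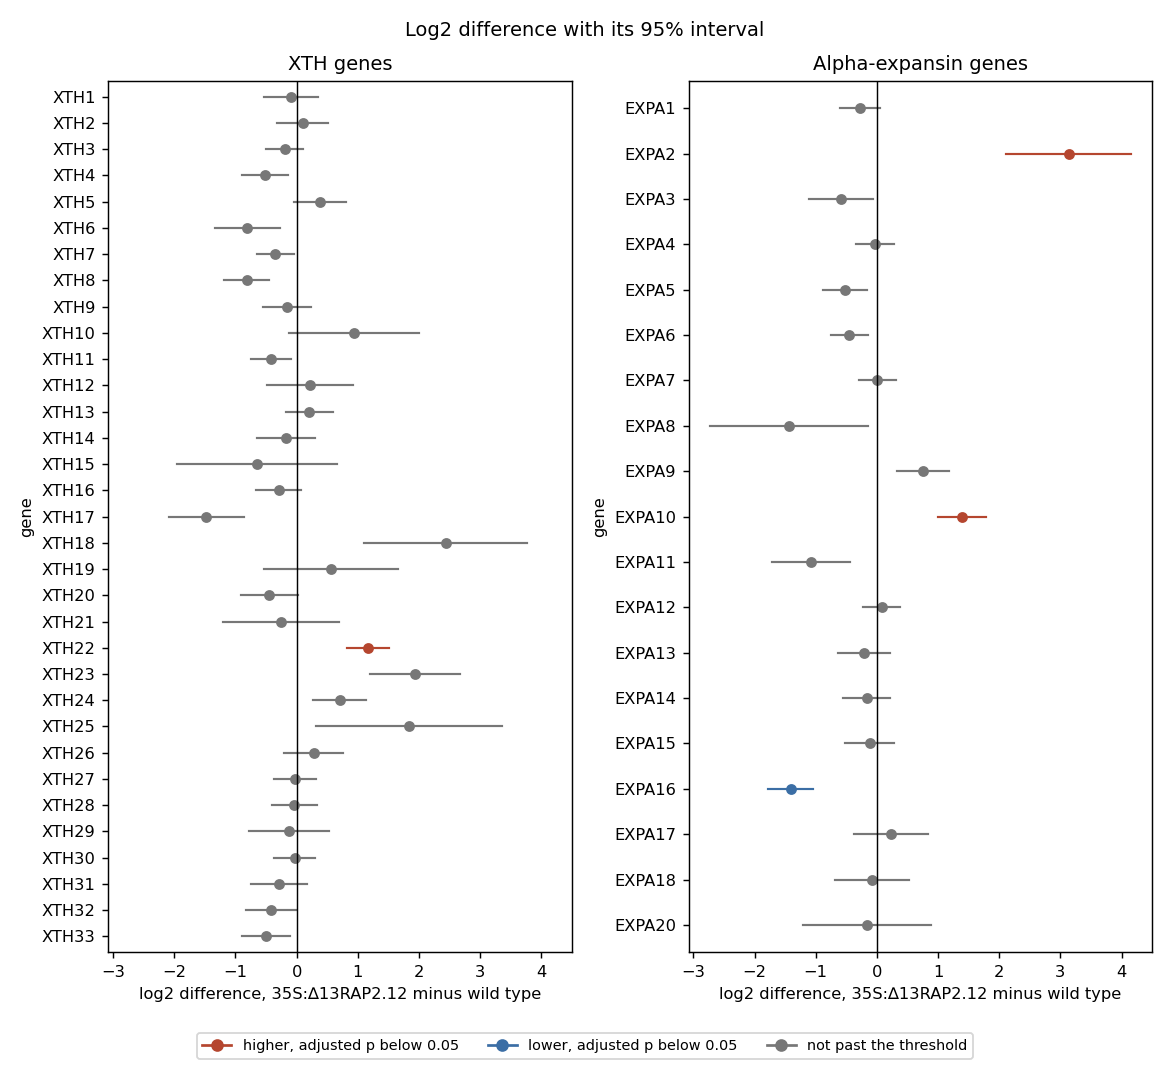
Log2 difference of each gene, transgenic-labelled minus wild type (horizontal axis), with its 95% interval from limma, for the XTH genes on the left and the alpha-expansins on the right. The 3 genes called higher are EXPA2, EXPA10 and XTH22, the 1 called lower is EXPA16, and XTH18, XTH23 and XTH25 have larger differences than XTH22 but wider intervals.

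Other genes of the same wall network had no difference of 1 log2 unit or more, which only 3.94% of all probe sets had. Nor did 3 other touch genes, which are not wall genes but are counted with them here. Of 40 genes on 6 lists, none passed (limma, adjusted p of at least 0.142), where only 2.17% of all probe sets were called. At an unadjusted p below 0.05, 1, the touch gene CML12, was higher and 9 were lower, beside 7.85% and 8.38% of all probe sets. The median difference of the 40 genes was -0.15, against -0.04 for all probe sets. Among 13 genes that build xyloglucan, 12 had negative differences (10 or 12 with 1 array left out), where 57.6% of all probe sets were negative, and the median was -0.21. The nearest to passing was XLT2, a galactosyltransferase that decorates the chain, with 8.85 and 9.12 on transgenic-labelled arrays, against 9.64 and 9.54 in the wild type (difference -0.60, adjusted p = 0.156). Of 3 genes that trim xyloglucan, XYL1, an alpha-xylosidase, was nearest at -0.43 (adjusted p = 0.242). Of 11 genes of cellulose synthesis, CESA7, a synthase of secondary walls, was nearest at -0.62 (adjusted p = 0.165), and the median was -0.10.

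The 4 expansin-like genes had a median of -0.71. EXLB1 was nearest, with a mean of 7.77 ± 0.32 on transgenic-labelled arrays and 8.60 ± 0.04 in the wild type (SD, n = 2 each; difference -0.83, limma adjusted p = 0.142). Of 6 beta-expansins, EXPB1 was nearest at -0.69 (adjusted p = 0.371). None of 3 other touch genes passed: CML12, a calmodulin-like protein known as TCH3, differed by 0.45 (adjusted p = 0.163), CAM2 by 0.18 and CML24 by -0.13. The differences between lists were not tested.

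**Figure D5:**
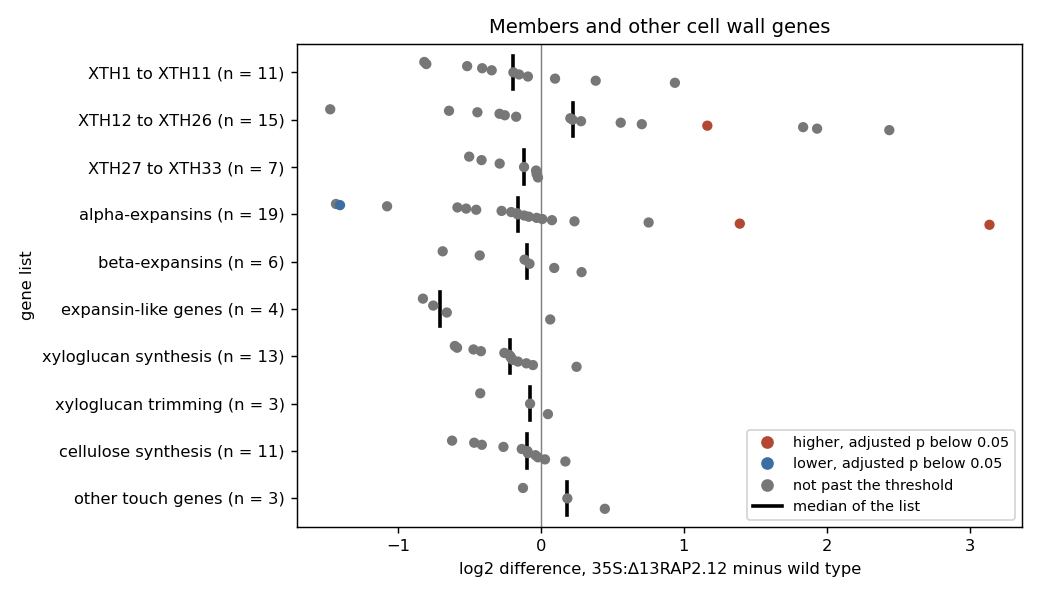
Log2 difference of each gene, transgenic-labelled minus wild type (horizontal axis), by list, with the list median as a black bar. Members of XTH12 to XTH26 and alpha-expansins spread from -1.48 to 3.14. XTH1 to XTH11 lie between -0.82 and 0.94, XTH27 to XTH33 between -0.50 and -0.02, and the 40 other genes between -0.83 and 0.45.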

How the data were processed

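The deposited values are RMA expression values, per the submitters' processing notes, on the log2 scale as their range shows. Neither the authors' probe set definition nor their software version is given in the sources used here. Values filled 4 columns, all used. No filter, pseudocount or further normalization was applied, and depth has no counterpart here beyond the number of arrays. Loci were matched to the TAIR10.1 gene table, which holds all 52 members; no sequences were used.

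Each probe set was tested with limma's lmFit and eBayes (version 3.58.1, R 4.3.3; no covariates, 2 residual and 2.55 prior degrees of freedom) over all 27826 probe sets, with Benjamini-Hochberg adjustment and a threshold of 0.05. The errors are moderated standard errors. Named were all called members, in each of 4 groups up to 5 members with the largest differences among those with separate arrays and a mean at or above the lower quartile in 1 line, their neighbours, and of each other list the gene with the smallest p. Members and lists were chosen with earlier results of these data known. The test was tried on simulated data with known differences. With 2 arrays per line it recovered 10.8% of differences of 1 log2 unit and 57.4% of differences of 2 log2 units. A gene that did not pass may therefore still differ. Figures were drawn with matplotlib 3.10.9.

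Other settings tried were a replicate block, quantile normalization again, median centring, a low-level filter, eBayes with a trend or robust, an adjusted p threshold of 0.10, and each array left out in turn.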

Additional observations from a re-analysis of the deposited data

How the results depend on the processing

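The 4 calls held under quantile normalization, median centring and robust eBayes. With the replicate block 3 members passed, or 5.77% beside 1.85% of all probe sets, and XTH22 did not (limma adjusted p = 0.0600). The labels give the lines shared numbers but no shared origin, and same-numbered arrays hardly deviated together over all probe sets (r = 0.03 across genes, and 0.15 across the 52 members), so the numbers were not used as pairs. With a low-level filter, which tested 38 members, 4 were higher and 2 lower, XTH23 and XTH8 being added, beside 4.32% of the probe sets tested. With an intensity trend 6 were higher and 9 lower, beside 6.32% of all probe sets called in either direction. Of the 40 genes on the other lists, 1 (the touch gene CML12) was higher and 3 (EXLB1, XLT2 and XYL1) were lower, beside the same 6.32%. At an adjusted p threshold of 0.10, 4 were higher and 3 lower, beside 4.32% of all probe sets called in either direction. With each array left out in turn, 0 to 2 members were higher and 0 lower; the lone array is then assumed to vary like the other line. In these fits XTH14 ranged from -0.36 to 0.012 and XTH19 from -0.041 to 1.16, both turning sign without replicate 1 of the transgenic-labelled arrays. The cause of these changes was not tested. The median over members stayed between -0.17 and -0.09. The median of XTH12 to XTH26 was 0.06 without replicate 1 of the transgenic-labelled arrays, 0.40 without wild type replicate 2 and 0.93 with the filter, which left 8 of its 15 genes. Of the 21 named members the remaining 19 kept their direction under every alternative in which they were tested. Which single probe sets rose above background is not known.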
